A study of Saccharomyces cerevisiae with 6 samples.

Results

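The mitochondrial genome of budding yeast was read out here through every gene that the authors' exon tables place on the chromosome named Mito, which came to 55 of the 7126 genes. They comprise 8 major protein genes, 10 frames carried by introns or by the omega element, 2 ribosomal RNA genes, RPM1, 24 tRNA genes and 10 other open reading frames whose names start with Q. They cover 87 exon rows but only 71 distinct exons, because genes that share a start also share reads: COX1 and the frames AI1 to AI5_ALPHA form such a set of 6 genes, and COB with BI2, BI3 and BI4 a set of 4. Only tT(XXX)Q2 lies on the minus strand, and no gene of the set has an annotated gene opposite to it.

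Strand-specific total RNA was sequenced from 6 libraries, 2 for each of 3 haploid mating-type a strains of S288C descent that carry leu2D1 and lys2-128d. The ck2ts strain (YAN1105) lacks CKA1 (cka1delta0::KanMX6) and carries the allele cka2D225N::NAT, so that both genes for the catalytic subunits of casein kinase 2 are altered. The spt6-7SA strain (YAN1116) has the chromosomal gene removed (spt6D::kanMX6) and carries FLAG-tagged spt6 7S-A on the centromeric URA3 plasmid pcc11, with his3D200, ura3delta0, bar1D::KanMX6 and IWS1-13MYC::HIS3. Spt6 is a histone chaperone of transcribed nuclear genes. The WT strain (YAN1104) shares bar1D::NAT and a construct at ura3-52 (HHF1 and FLAG-HHT1 on either side of PGAL1/10, with URA3) with ck2ts, and neither is listed for spt6-7SA, so effects of spt6 7S-A cannot be told apart from effects of these other differences. All strains, WT included, were cultured at 30 °C in YPD until the OD600 was 0.5 and then kept at 39 °C for 2 h, so no library shows the permissive temperature. Both libraries of a group carry the same strain number, and the labels do not say whether each had its own culture. The p-values therefore cover only the spread between these libraries.

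Yeast mitochondrial DNA encodes core subunits of the respiratory complexes and of the ATP synthase, the ribosomal protein Var1, and the RNAs for translating them. A nuclear-encoded, phage-like RNA polymerase transcribes it into long precursors from sites marked by a nonanucleotide, ATATAAGTA. Processing frees the tRNAs, splicing removes the introns, and many mRNAs are trimmed near a conserved dodecamer after the coding sequence. Yeast grows by fermentation without respiration, and cells that have lost all or part of this genome, called petites, survive on glucose. DNA content and respiratory growth were not measured here. In RNA pooled from a culture, fewer cells holding a transcript and less transcript per cell cannot be told apart.

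The nonanucleotide was found 11 times on the plus strand and 3 times on the minus strand of the 85779 bp genome. The 30 bases around 7 of the plus-strand matches are given because the next gene was called lower in ck2ts; the other 2 such matches lie 1732 and 3164 bp before 15S_RRNA and tE(UUC)Q. Capitals mark the nonanucleotide, and coordinates are of build R64, plus strand, with sequence from RefSeq.
Before 15S_RRNA, Mito:6452-6481: atttattattATATAAGTAataaataatag
Before the COX1 set, Mito:13339-13368: ataagtattgATATAAGTAatagatataat
Before tE(UUC)Q, Mito:34868-34897: aagaaatattATATAAGTAatatataaaaa
Before OLI1, Mito:46061-46090: attaatattaATATAAGTAatatatatagt
Before OLI1, Mito:46139-46168: atacacatttATATAAGTAtatatatatat
Before 21S_RRNA, Mito:57990-58019: attattatatATATAAGTAgtaaaaagtag
Before Q0182, Mito:65374-65403: taataatgttATATAAGTAataatataata
The match lies 84 bp before the annotated start of 15S_RRNA, 469 bp before COX1, 495 bp before tE(UUC)Q, the tRNA gene that precedes COB, 652 and 574 bp before OLI1, 9 bp before 21S_RRNA, and 386 bp before Q0182. In windows of 250 bases before to 50 after each gene's start, the motif stood on the gene's strand at 3 of 55 mitochondrial genes (5.45%) and at 50 of 7070 nuclear ones (0.707%), and on either strand at 3 and at 73 (1.03%). These matches describe letters, not sites of initiation.

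CKA1, deleted in ck2ts, had 202 and 100 sense reads in ck2ts, 3289 and 3858 in spt6-7SA and 4970 and 3504 in WT, while CKA2 and SPT6 were read in every library and cannot check a point mutation or a plasmid copy. The libraries held 56307173 to 83375420 sense reads in genes. Levels below are CPM, reads scaled to a common library size with the TMM factors of edgeR, and a gene was called changed at an adjusted p under 0.05 (edgeR quasi-likelihood test, Benjamini-Hochberg over all 6778 genes tested on the sense strand). The ribosomal RNA was depleted before library preparation, to a degree unknown for the mitochondrial rRNAs.

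In ck2ts reads were nearly lost from the whole mitochondrial genome except the neighbourhood of COX2. Of the 55 genes, 32 had enough sense reads to be tested, and 30 of those were lower in ck2ts than in WT, where 32.4% of all tested genes were called lower. The only gene called higher was Q0255, which adjoins COX2, against 32.2% of all genes, and COX2 did not pass. A gene with few reads in ck2ts passed the filter on low counts through spt6-7SA and WT, and so had to differ. The other 23 genes were too low to test. The median log2 fold change of the tested genes was -9.54 (-8.54 with 15 genes that had 0 reads in ck2ts set to their bound), beside 0.02 over all genes tested. No sense read was found for 36 genes in ck2ts, against 5 in spt6-7SA and 6 in WT. Both ck2ts libraries lay below both WT libraries for 39 genes and above them for 2. How often all genes separate in this way was not counted, so these numbers have no background to be read against.

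**Figure D1:**
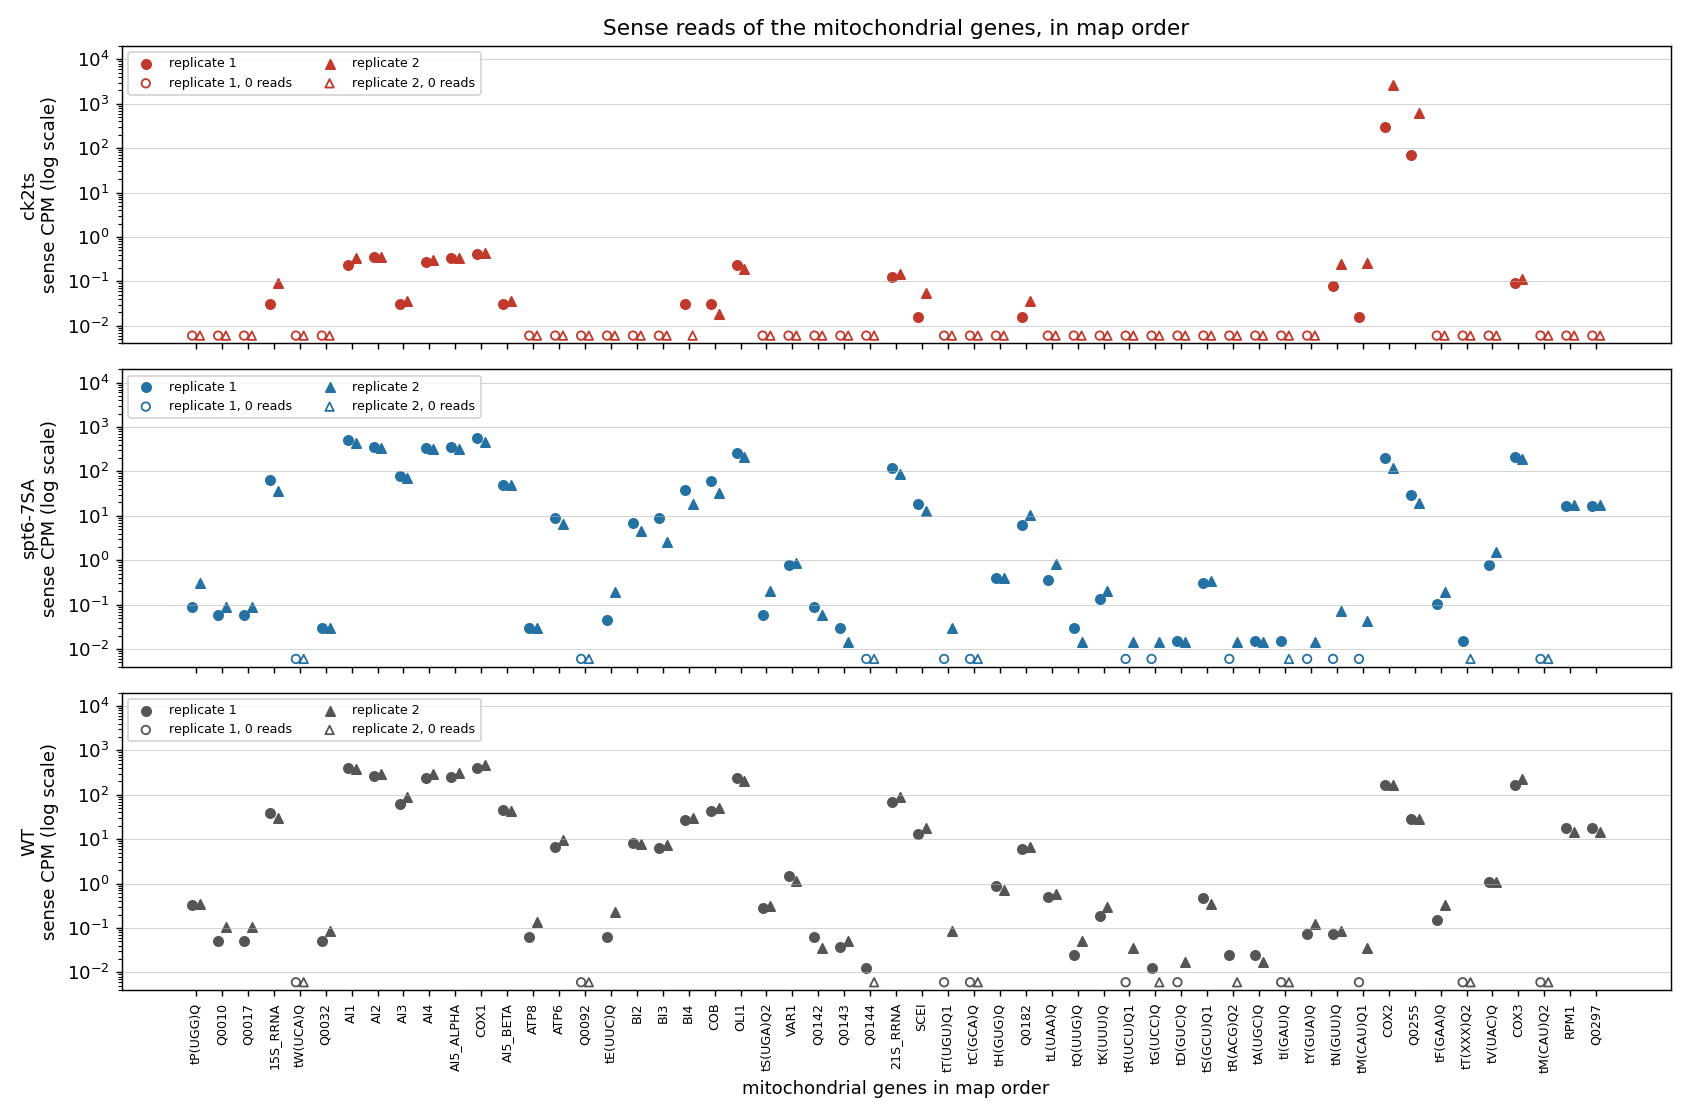
Sense CPM (log scale) of the 55 mitochondrial genes in map order, from tP(UGG)Q to Q0297, with ck2ts at the top, spt6-7SA in the middle and WT at the bottom; circles are replicate 1, triangles replicate 2, and open symbols along the floor are libraries with 0 reads. In ck2ts only COX2 and Q0255 stand above 1 CPM, while spt6-7SA and WT have like profiles across the map.

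The major mRNAs for respiratory subunits shrank to traces. COX1, the catalytic core subunit of cytochrome c oxidase, had 27 and 24 sense reads in ck2ts, 37304 and 31720 in spt6-7SA and 31225 and 26617 in WT. As levels these were 0.430 ± 0.020 CPM in ck2ts, 511 ± 69.6 CPM in spt6-7SA and 426 ± 49.6 CPM in WT (SD, n = 2 each). The ck2ts libraries did not overlap the others (log2 fold change against WT -9.95, SE 0.20, edgeR adjusted p = 1.8e-07). COX3, another mitochondrially made core subunit of the same complex, had 6 and 6 reads in ck2ts, 13854 and 12916 in spt6-7SA and 13439 and 13127 in WT. OLI1, which encodes the ring subunit of the ATP synthase, had 15 and 10 reads in ck2ts, 17199 and 14265 in spt6-7SA and 19536 and 11951 in WT. Against WT, the log2 fold change was -10.91 for COX3 (SE 0.26, edgeR adjusted p = 6.4e-07) and -10.06 for OLI1 (SE 0.22, edgeR adjusted p = 3.0e-07). In both genes the ck2ts libraries lay far below all the others.

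COB, cytochrome b, had 2 and 1 reads in ck2ts, 4039 and 2231 in spt6-7SA and 3446 and 2888 in WT, which leaves ck2ts 0.0549% of the WT level (95% exact counting interval 0.0113% to 0.160%). ATP6, the subunit of the proton channel beside the Oli1 ring, had 0 and 0 reads in ck2ts, 611 and 461 in spt6-7SA and 534 and 552 in WT. VAR1, the ribosomal protein gene, had 0 and 0 reads in ck2ts, 53 and 61 in spt6-7SA and 120 and 66 in WT. All of these groups stood apart from ck2ts, and with a floor of 3 reads over both ck2ts libraries the level against WT was at least 313-fold lower for ATP6 and at least 53.5-fold lower for VAR1. ATP8, a small subunit of the ATP synthase, had 0 and 0 reads in ck2ts, 2 and 2 in spt6-7SA and 5 and 8 in WT, and was too low to test. Of the 8 major protein genes, 7 were tested and 6 fell.

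**Figure D2:**
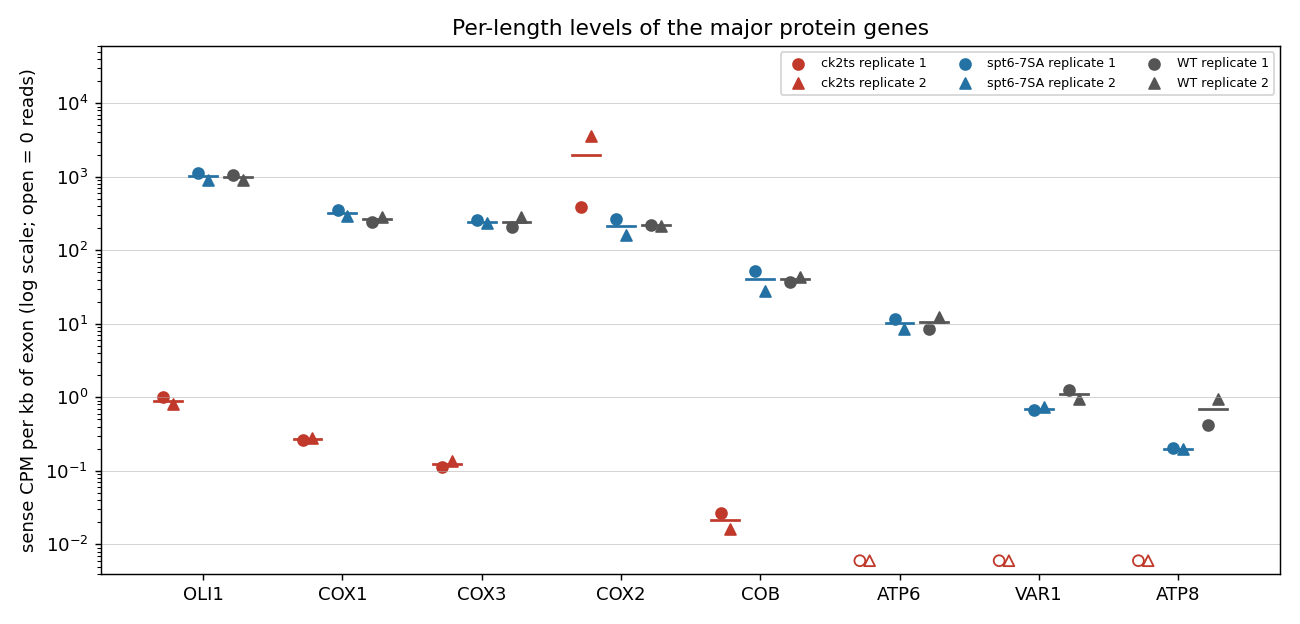
Sense CPM per kb of exon (log scale) of the 8 major protein genes, ordered by WT level, with ck2ts, spt6-7SA and WT from left to right within each gene; symbols are libraries, bars group means, and open symbols libraries with 0 reads. COX2 is the exception in ck2ts, at 1983 CPM per kb on average against 219 in WT, with replicates far apart.

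Per length, the order of the major protein genes was the same in spt6-7SA and WT. In WT, OLI1 led with 977 ± 115 CPM per kb, followed by COX1 with 265 ± 30.9, COX3 with 244 ± 51.6 and COX2 with 219 ± 3.46 CPM per kb (SD, n = 2). The spread of COX3 met those of COX1 and COX2, while COX1 lay above COX2 in both WT libraries. Each exon was also lengthened by 49 bp to allow for reads that overlap its edge. On that scale COX1 and COX3 traded places in WT but not in spt6-7SA, so the orders then differed. COB followed with 40.2 ± 4.20, ATP6 with 10.4 ± 2.61, VAR1 with 1.10 ± 0.212 and ATP8 with 0.684 ± 0.365 CPM per kb in WT. VAR1 and ATP8 were close enough for their spreads to meet. Across these 8 genes the log2 WT level per kb ran with base composition, Pearson r = 0.91 and Spearman rho = 0.93; VAR1 has the lowest G+C content (10.4%) and OLI1 the highest (33.3%). The 8 points come from the same libraries, and the part of G+C in the measured levels was not tested.

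The introns of COX1 and COB can carry maturases, proteins that help splice their own intron, and AI1 and AI2 also encode reverse transcriptases. All 10 intron or omega frames fell in ck2ts. AI1 had 15 and 18 sense reads in ck2ts, 33635 and 30065 in spt6-7SA and 31245 and 22004 in WT, and AI2 had 23 and 19 in ck2ts, 23095 and 23113 in spt6-7SA and 21421 and 17332 in WT. Because these rows include upstream COX1 exons, the intron part alone was counted too. For AI1 it held 0.121 ± 0.031 CPM per kb in ck2ts, 197 ± 16.1 in spt6-7SA and 158.2 ± 6.03 in WT. For AI2 it held 0.135 ± 0.003 CPM per kb in ck2ts, 123 ± 1.15 in spt6-7SA and 97.7 ± 3.33 in WT (SD, n = 2 each). The summed COX1 exons stood at 318 CPM per kb in spt6-7SA and 265 in WT, but single exons differed widely. Exon 1, directly before the AI1 intron, held 71.4 in spt6-7SA and 97.7 in WT, below the intron part of AI1. The 36 bp exon before the AI2 intron held 1099 in spt6-7SA and 1030 in WT, above the intron part of AI2. Reads over the edges may raise the level of so short an exon.

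The intron parts of AI3, AI4, AI5_ALPHA and the COB frames were read far less. That of AI3 held 7.34 CPM per kb in spt6-7SA and 8.68 in WT, that of AI4 5.99 in spt6-7SA and 5.44 in WT, and that of AI5_ALPHA 0.349 in spt6-7SA and 0.535 in WT; all had 0 reads in ck2ts. In COB, BI2 held 4.60 CPM per kb in spt6-7SA and 6.79 in WT, BI3 0.355 in spt6-7SA and 0.481 in WT, and BI4 0.937 in spt6-7SA and 1.78 in WT, again with 0 reads in ck2ts. So the AI4 gene row, though it counted 22192 and 21761 reads in spt6-7SA and 19289 and 17150 in WT, took 1.93% to 2.61% of its last exon's reads from intron in those libraries. AI5_BETA, which has a start of its own and lies in a later COX1 intron, had 2 and 2 reads in ck2ts, 3285 and 3352 in spt6-7SA and 3562 and 2508 in WT. Per length this was 0.0319 ± 0.004 CPM per kb in ck2ts, 46.1 ± 0.353 in spt6-7SA and 41.3 ± 0.765 in WT (SD, n = 2 each), below AI2 but well above AI3. SCEI, the homing endonuclease frame in the omega intron of the large rRNA, had 1 and 3 reads in ck2ts, 1244 and 870 in spt6-7SA and 1024 and 1046 in WT.

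**Figure D3:**
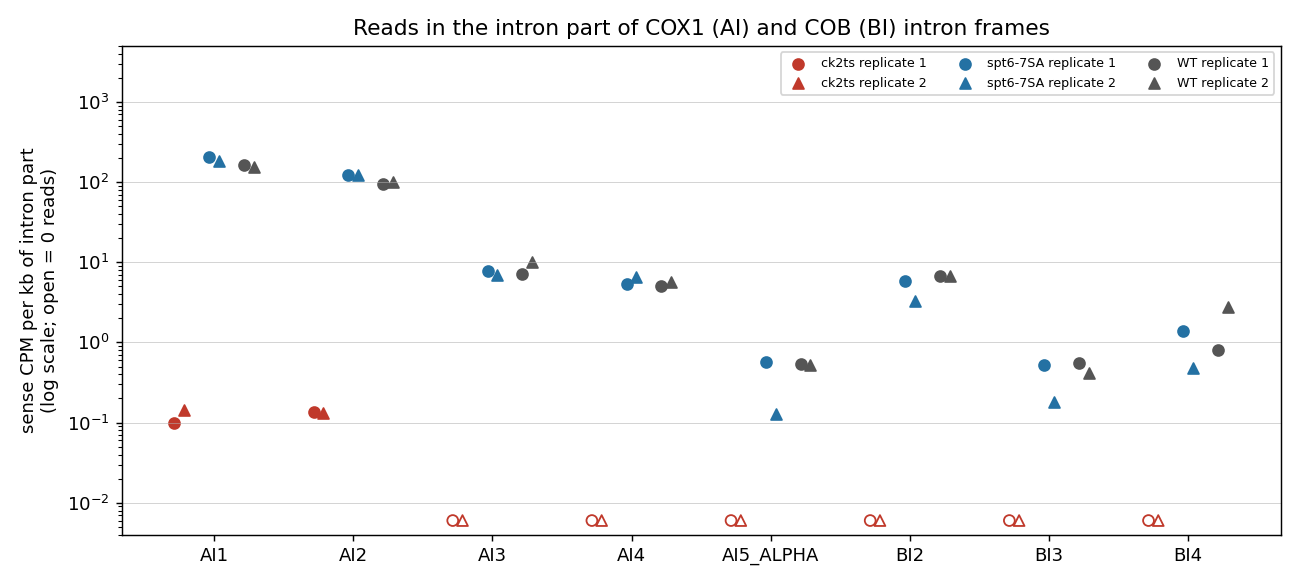
Sense CPM per kb (log scale) in the intron part of the COX1 (AI) and COB (BI) intron frames, with ck2ts, spt6-7SA and WT from left to right; symbols are libraries and open ones 0 reads. Of the 8 frames shown, AI1 and AI2 stand far above the others in spt6-7SA and WT, and only these 2 keep any reads in ck2ts.

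The RNAs of the mitochondrial translation machinery fell as well. The small-subunit rRNA gene 15S_RRNA had 2 and 5 sense reads in ck2ts, 4256 and 2464 in spt6-7SA and 3050 and 1758 in WT. The large-subunit gene 21S_RRNA had 8 and 8 reads in ck2ts, 8057 and 6172 in spt6-7SA and 5496 and 5045 in WT. Both fell in ck2ts, with log2 fold changes against WT of -9.14 for 15S_RRNA (SE 0.52, edgeR adjusted p = 2.3e-05) and -9.16 for 21S_RRNA (SE 0.29, edgeR adjusted p = 5.0e-06). RPM1, the RNA of mitochondrial RNase P, which trims tRNA 5′ ends, had 0 and 0 reads in ck2ts, 1122 and 1228 in spt6-7SA and 1459 and 835 in WT. Its level was at least 660-fold lower in ck2ts than in WT, the highest such bound among 24 genes that had 0 reads in ck2ts and more than 3 over the WT libraries; the lowest was at least 1.44-fold. Q0297 lies inside RPM1 and shares almost all of its reads.

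The 24 tRNA genes, of 71 to 90 bp, were read rarely on the sense strand, at 103 sense reads or fewer in any library. Of these, 9 could be tested and all 9 fell in ck2ts. The most read was tV(UAC)Q, for valine, with 0 and 0 reads in ck2ts, 53 and 103 in spt6-7SA and 88 and 63 in WT, at least 43.5-fold lower in ck2ts than in WT. tE(UUC)Q, for glutamate, had 0 and 0 reads in ck2ts, 3 and 13 in spt6-7SA and 5 and 13 in WT, and its call was near the threshold (edgeR adjusted p = 0.039). Among the other Q frames, Q0182 had 1 and 2 reads in ck2ts, 413 and 733 in spt6-7SA and 484 and 389 in WT, and the 7 frames too low to test (Q0010, Q0017, Q0032, Q0092, Q0142, Q0143 and Q0144) had 0 reads in ck2ts and at most 6 in any library.

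A trace of reads remained in ck2ts outside the COX2 neighbourhood. There, 15 genes kept some sense reads in ck2ts, at 0.0463% (AI3) to 0.398% (Q0182) of their WT level. The intron parts of AI3, AI4, AI5_ALPHA and BI4 had 0 reads in ck2ts, so the reads of these frames came from exons shared with COX1 or COB. The 8 genes with at least 10 reads kept 0.0523% (COX3) to 0.176% (21S_RRNA), with a median of 0.105%. They include COX1, AI2, AI4 and AI5_ALPHA, whose rows count some of the same reads, so the median counts those reads more than once. The exact 95% counting intervals of COX3 (0.0270% to 0.0914%) and 21S_RRNA (0.100% to 0.286%), the lowest and highest of the 8, did not meet. These intervals cover counting error in the pooled reads and not the spread between libraries, so a difference between the 2 genes was not tested. Without COX2 and Q0255, mitochondrial exons made up 130 and 141 sense reads of ck2ts, or 0.000199% and 0.000251% of all sense reads in distinct exons. The same share was 0.268% and 0.238% in spt6-7SA and 0.189% and 0.212% in WT. Where these few reads came from was not tested.

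COX2 and Q0255 ran against the rest of the genome. COX2 encodes a copper-binding subunit of cytochrome c oxidase. It had 19127 and 145998 sense reads in ck2ts, 13295 and 8298 in spt6-7SA and 13398 and 9470 in WT. Its level was 295 and 2703 CPM in ck2ts, 200 and 121 CPM in spt6-7SA and 168 and 164 CPM in WT. Both ck2ts libraries lay above the others, at 1.78 and 16.3 times the WT mean, but they differed from each other by 9.16 times and the difference did not pass (log2 fold change 3.18, SE 1.14, edgeR adjusted p = 0.069). Q0255, the frame after COX2, had 4428 and 33356 reads in ck2ts, 1928 and 1362 in spt6-7SA and 2228 and 1642 in WT. Its log2 fold change was 3.61 (SE 1.14, edgeR adjusted p = 0.0498), and the call ended under 9 of the 15 alternatives. Leaving out either ck2ts library brought COX2 past the threshold of the edgeR test. Its log2 fold change was 4.03 (edgeR adjusted p = 0.00025) without ck2ts replicate 1 and 0.83 (edgeR adjusted p = 0.045) without ck2ts replicate 2, and that of Q0255 was 4.45 without replicate 1 and 1.28 without replicate 2. With 1 ck2ts library left, these fits take its spread from the other groups and leave out the difference between the ck2ts libraries.

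COX2 and Q0255 therefore made up nearly all mitochondrial sense reads of ck2ts, 99.5% and 99.9%, against 8.13% and 5.96% in spt6-7SA and 9.04% and 8.27% in WT. The mitochondrial share of all sense reads was 0.0363% and 0.319% in ck2ts, 0.292% and 0.253% in spt6-7SA and 0.208% and 0.231% in WT. The ck2ts libraries fell on either side of WT, so the total does not show the loss. An exact two-sided permutation test gave p = 1.0 for ck2ts against WT, and 2 libraries against 2 cannot go below 0.333.

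The retained stretch can be bounded by its neighbours. From tN(GUU)Q through tM(CAU)Q1 and COX2 to Q0255, ck2ts kept reads, while tY(GUA)Q before it and tF(GAA)Q after it had none. tN(GUU)Q, for asparagine, had 5 and 13 sense reads in ck2ts, 0 and 5 in spt6-7SA and 6 and 5 in WT. tY(GUA)Q, for tyrosine, had 0 and 0 in ck2ts, 0 and 1 in spt6-7SA and 6 and 7 in WT, so that this boundary rests on few reads. tF(GAA)Q, for phenylalanine, had 0 and 0 in ck2ts, 7 and 13 in spt6-7SA and 12 and 19 in WT. The interval between them, Mito:70908-77430 (6523 bp, build R64), holds no nonanucleotide on either strand, none of the 8 annotated replication origins, and no 36-base stretch shared with a nuclear chromosome. Its G+C content was 16.3%, against 17.1% for the whole genome.

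**Figure D4:**
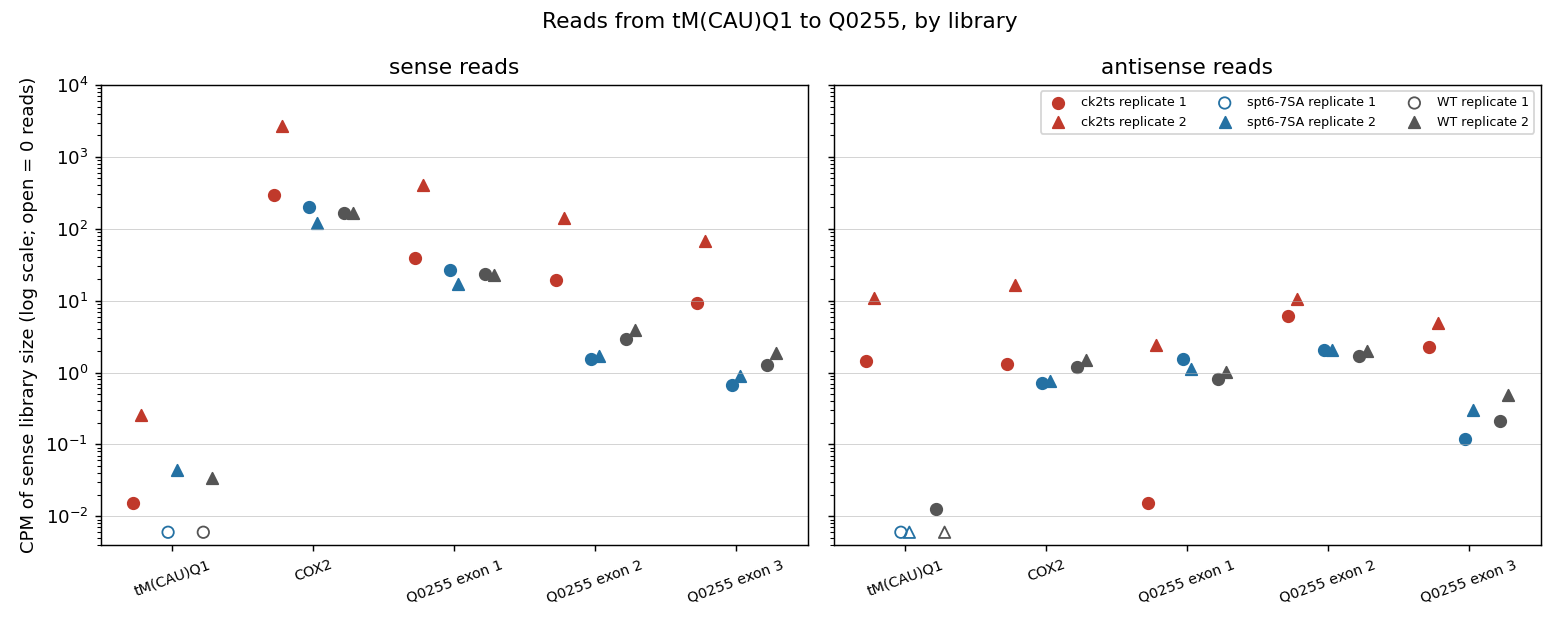
CPM of the sense library size (log scale) for tM(CAU)Q1, COX2 and the 3 exons of Q0255, sense reads at left and antisense reads at right, with ck2ts, spt6-7SA and WT from left to right within each feature; circles are replicate 1, triangles replicate 2, and open symbols 0 reads. The ck2ts libraries lie above the others on the sense strand of COX2 and of all 3 Q0255 exons. On the antisense strand they do so at tM(CAU)Q1 and at exons 2 and 3 of Q0255.

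Relative to COX2, the later exons of Q0255 held more reads in ck2ts than in the other groups. A 12-base string, AATAATATTCTT, was found by a script as shared by the 150 bases after 5 of the 8 major protein genes, a choice made from the sequences alone; the overlapping string TAATAATATTCT was shared by the same 5. It stood in 6 of 53 such windows after mitochondrial genes (11.3%) and 2 of 7071 after nuclear ones (0.0283%), the first share being fixed in part by that choice, and 9 times on the plus strand of the mitochondrial genome, 2 of them in the retained stretch. The lines below give the plus strand of build R64 with sequence from RefSeq and the string in capitals. They are shown because exon 1 of Q0255 spans the copy after COX2 and the later exons lie past that copy.
After COX2, Mito:74567-74596: aataattatAATAATATTCTTaaatataat
After Q0255, Mito:76133-76162: ataacttttAATAATATTCTTttattcttt
After COX1, Mito:26761-26790: taatataatAATAATATTCTTataaaaata
After ATP6, Mito:29344-29373: cccccttttAATAATATTCTTttatctaat
After COB, Mito:43736-43765: taatactttAATAATATTCTTaaaaataat
After COX3, Mito:80114-80143: tattattatAATAATATTCTTacaaatata
The copy after COX2 lies 63 bp past its end, inside exon 1 of Q0255, which overlaps COX2 by 19 bp.

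Exon 1 of Q0255 followed COX2 in all libraries: per 100 COX2 reads it had 13.4 and 15.1 in ck2ts, 13.4 and 14.3 in spt6-7SA and 14.1 and 13.8 in WT. Most of exon 1 lies past the string too. Its 5′ part, as the authors counted it, held 96.5% and 92.9% of its reads in ck2ts. That part held 98.8% and 98.7% in spt6-7SA and 98.0% and 98.1% in WT. Exon 2 had 6.56 and 5.21 reads per 100 COX2 reads in ck2ts, 0.760 and 1.41 in spt6-7SA and 1.72 and 2.40 in WT. Exon 3 had 3.17 and 2.50 in ck2ts, 0.338 and 0.735 in spt6-7SA and 0.761 and 1.14 in WT. For exons 2 and 3 the ck2ts libraries did not overlap the others, and they were nearer to each other than the COX2 levels were. In reads, exon 2 had 1254 and 7609 in ck2ts, 101 and 117 in spt6-7SA and 231 and 227 in WT. The 3′ part of exon 1, as the authors counted it, had 5 and 36 reads in ck2ts, 2 and 0 in spt6-7SA and 0 and 3 in WT. The labels do not give the extent of the 5′ and 3′ parts, and whether reads run on from COX2 into exon 2 was not tested. The ratios were compared after their values were seen and were not tested.

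Antisense reads were few in the mitochondrial genome, and COX2 and Q0255 held a large share of them in every group: 81.0% and 74.3% in ck2ts, 50.2% and 46.9% in spt6-7SA and 51.9% and 47.4% in WT. Antisense reads made up 3.15% and 1.37% of mitochondrial reads in ck2ts, 0.313% and 0.383% in spt6-7SA and 0.345% and 0.448% in WT; the exact two-sided permutation test of ck2ts against WT gave p = 0.333, the smallest possible. Across all exons the antisense share was 4.92% and 4.85% in ck2ts, 4.54% and 4.73% in spt6-7SA and 4.42% and 4.57% in WT. Of the 14 mitochondrial genes tested on the antisense strand, 10 fell in ck2ts against WT, where 14.1% of all 6550 genes tested were called lower, and Q0255 rose, where 48.2% were called higher. The genes that fell had no antisense read in ck2ts, passed the filter on low counts through spt6-7SA and WT, and so had to differ. The median log2 fold change of the 14 tested genes was -6.66 (-2.90 with 10 genes at their bound), beside 0.62 over all genes tested. The remaining 41 genes were too low to test, and 48 of the 55 had no antisense read in ck2ts, against 23 in spt6-7SA and 20 in WT.

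The genes called lower included AI2, with 0 and 0 antisense reads in ck2ts, 74 and 91 in spt6-7SA and 49 and 52 in WT, and tT(XXX)Q2, with 0 and 0 in ck2ts, 14 and 44 in spt6-7SA and 20 and 42 in WT. tF(GAA)Q had 0 and 0 antisense reads in ck2ts, 6 and 35 in spt6-7SA and 30 and 30 in WT. In each of them ck2ts stood apart, at least 29.1-fold, 17.8-fold and 17.3-fold lower than WT. tT(XXX)Q2 had at most 1 sense read in any library, so nearly all reads over this minus-strand tRNA gene ran along the plus strand.

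Antisense reads of Q0255 numbered 538 and 962 in ck2ts, 248 and 239 in spt6-7SA and 217 and 201 in WT, without overlap of ck2ts and the others (log2 fold change against WT 2.08, SE 0.34, edgeR adjusted p = 8.0e-04). Both ck2ts libraries lay above the others at exons 2 and 3, but on opposite sides of them at exon 1. Exon 1 had 1 and 129 antisense reads in ck2ts, 102 and 77 in spt6-7SA and 65 and 59 in WT. Exon 2 had 390 and 569 in ck2ts, 138 and 141 in spt6-7SA and 135 and 114 in WT. Exon 3 had 147 and 264 in ck2ts, 8 and 21 in spt6-7SA and 17 and 28 in WT. COX2 had 86 and 888 in ck2ts, 47 and 53 in spt6-7SA and 94 and 86 in WT, and did not pass (2.74, SE 1.41, adjusted p = 0.19). tM(CAU)Q1, a methionine tRNA gene, had 94 and 590 antisense reads in ck2ts, 0 and 0 in spt6-7SA and 1 and 0 in WT. That is 792 times the WT level (95% exact counting interval 142 to 31341), yet it did not pass (edgeR adjusted p = 0.092). Its sense reads numbered 1 and 14 in ck2ts, 0 and 3 in spt6-7SA and 0 and 2 in WT. The gene strand, with the anticodon in capitals, is printed because the reads came from the opposite strand.
tM(CAU)Q1, Mito:72630-72705, plus strand: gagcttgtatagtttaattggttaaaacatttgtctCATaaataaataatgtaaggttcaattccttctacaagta

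The antisense reads of 21S_RRNA did not fall with its sense reads. They numbered 49 and 43 in ck2ts, 61 and 26 in spt6-7SA and 65 and 41 in WT, and the groups overlapped (log2 fold change against WT 0.02, SE 0.37, edgeR adjusted p = 0.97). The 21S_RRNA exons hold 85 bases in 36-base stretches that also occur on nuclear chromosomes. Whether these reads came from there was not tested.

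In spt6-7SA the tested mitochondrial genes showed no loss of the size seen in ck2ts, but 2 libraries per group leave smaller shifts undecided. Of the 32 genes tested, tH(GUG)Q fell, where 24.7% of all genes were called lower, and AI2 rose, where 25.9% were called higher; 30 did not pass, and 5 had an unadjusted p under 0.05, all in the fit without a replicate block. The median log2 fold change was 0.00, beside 0.01 over all genes tested. With the replicate block, more of these genes were called in each direction. tH(GUG)Q, for histidine, had 26 and 27 reads in spt6-7SA and 70 and 41 in WT (log2 fold change -1.02, SE 0.32, edgeR adjusted p = 0.038). AI2 averaged 342 ± 7.30 CPM in spt6-7SA and 284 ± 22.6 CPM in WT (SD, n = 2 each; log2 fold change 0.27, SE 0.09, adjusted p = 0.040). Groups did not overlap for either gene, but DESeq2 called neither (adjusted p = 0.052 for AI2 and 0.12 for tH(GUG)Q, by DESeq2), and leaving out a single spt6-7SA library ended both calls, as did leaving out WT replicate 1, and leaving out WT replicate 2 ended that of tH(GUG)Q. COX1 stood at 0.26 (SE 0.13, adjusted p = 0.12) and AI1 at 0.29 (SE 0.11, adjusted p = 0.066).

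The other genes spread on both sides of WT. The largest fitted log2 fold changes were those of 15S_RRNA (0.54, SE 0.27), 21S_RRNA (0.43, SE 0.17) and Q0182 (0.40, SE 0.26), and the lowest, beside tH(GUG)Q, those of tS(UGA)Q2 (-1.13, SE 0.59) and tP(UGG)Q (-0.77, SE 0.58); of these only tH(GUG)Q passed. VAR1 averaged 0.842 ± 0.065 CPM in spt6-7SA and 1.32 ± 0.254 CPM in WT (log2 fold change -0.66, SE 0.28, edgeR adjusted p = 0.094). COB stood at 46.6 ± 19.9 CPM in spt6-7SA and 46.6 ± 4.86 CPM in WT, with 60.7 and 32.5 CPM in the spt6-7SA libraries and 43.1 and 50.0 CPM in the WT libraries. COX1 exon 1, counted in 5 gene rows, had 1277 and 340 reads in spt6-7SA and 924 and 1239 in WT. The mitochondrial share of sense reads was higher in both spt6-7SA libraries than in both WT libraries, with an exact two-sided permutation p = 0.333, the smallest possible. On the antisense strand none of the 14 genes tested passed, by edgeR, where 10.8% of all genes were called lower and 30.9% higher; 1 had an unadjusted p under 0.05, and DESeq2 also called none.

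**Figure D5:**
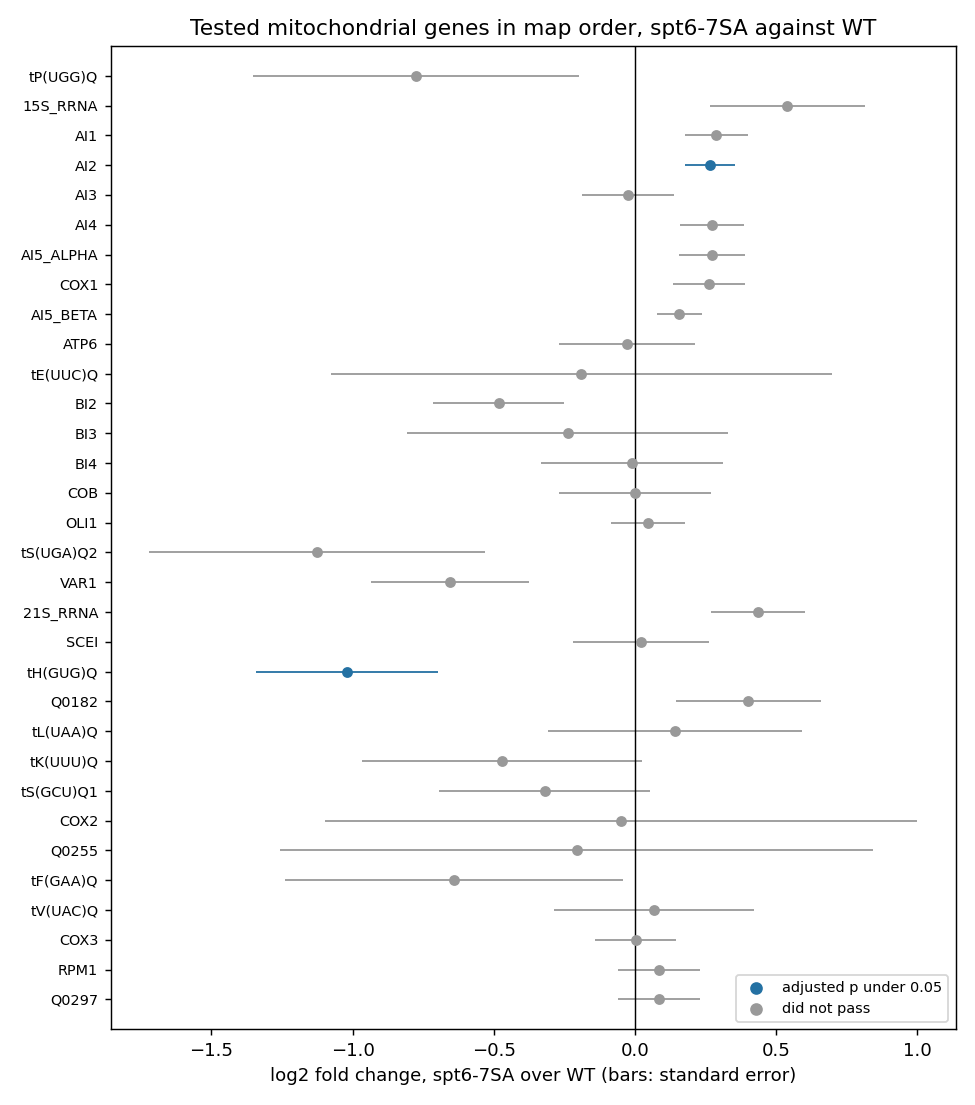
Log2 fold change of the 32 tested mitochondrial genes in spt6-7SA over WT, in map order from the top, with bars for the standard error; blue points passed at an adjusted p under 0.05 and grey ones did not. Most points lie within 0.5 of zero, and the passing genes are AI2 and tH(GUG)Q.

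Set directly against spt6-7SA, ck2ts showed a loss of like size. Of the 32 genes tested, 29 were lower in ck2ts, where 27.2% of all genes were called lower, and none was called higher by edgeR (2 by DESeq2), where 25.1% were; tE(UUC)Q, COX2 and Q0255 did not pass, and all 32 had an unadjusted p under 0.05. The comparison shares its ck2ts libraries with that against WT. The median log2 fold change was -9.79. COX1 stood at -10.21 (SE 0.20, edgeR adjusted p = 1.6e-07), and RPM1 was at least 688-fold lower in ck2ts than in spt6-7SA.

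Among nuclear genes that serve mitochondrial gene expression, fold changes in ck2ts were small beside those of the mitochondrial genes. RPO41 and MTF1, the mitochondrial RNA polymerase and its specificity factor, did not pass in either mutant. Of 17 genes for mitochondrial DNA maintenance, 2 were higher and 7 lower in ck2ts, with 8 not passing, and 1 was higher and 7 lower in spt6-7SA, with 9 not passing. NUC1, the mitochondrial nuclease, had a log2 fold change of -1.19 (SE 0.09) in ck2ts, and APN1, an endonuclease of base excision repair, one of -0.96 (SE 0.08). Of 20 genes for RNA processing, splicing and decay, 7 were higher and 5 lower in ck2ts, with 8 not passing, and 5 were higher and 5 lower in spt6-7SA, with 10 not passing. TRZ1, the tRNA 3′ endonuclease, stood at -1.02 (SE 0.09) in ck2ts, and MNE1 at 0.89 (SE 0.08).

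Most of the tested translation activators, and most of the translation factors and synthetases, were higher in ck2ts. Of 18 activators of single mitochondrial mRNAs, 11 were higher and 3 lower in ck2ts, with 4 not passing and a median log2 fold change of 0.37; in spt6-7SA 4 were higher and 3 lower, and 11 missed the threshold. PET111, the activator of COX2 translation, stood at 0.84 (SE 0.09), and ATP22, that of ATP6, at 0.80 (SE 0.08) in ck2ts. Of 21 translation factors and aminoacyl-tRNA synthetases, 15 were higher and 1 lower in ck2ts, with 5 not passing and a median log2 fold change of 0.44. MEF2, for a mitochondrial factor of the elongation factor G family, stood at 1.73 (SE 0.10). In spt6-7SA 3 of these were higher and 4 lower, and 14 missed the threshold. Of 76 genes named as mitochondrial ribosomal proteins, 9 were higher and 13 lower in ck2ts, with 54 not passing, and 6 were higher and 17 lower in spt6-7SA, with 53 not passing. Among all genes tested, 32.2% were called higher and 32.4% lower in ck2ts, and 25.9% higher and 24.7% lower in spt6-7SA. The lists overlap: PET54, CBP1, AEP1 and AEP2 count both as RNA processing genes and as activators. NAM2 counts both as an RNA processing gene and as a synthetase.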

How the data were processed

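Trimming of the 50-base single-end reads (Trimmomatic), alignment to build R64 (BWA) and counting by exon and strand (SAMtools) were done by the authors, per the labels' protocols, which name no tool versions. What they deposited are raw read counts, and reads over an exon's edge seem to be counted with it, since an exon of 14 bp has reads. Exon counts were summed to genes; a read in shared exons counts in each gene, and shares use distinct exons. Genes were tested with edgeR 4.0.16 (R 4.3.3; filterByExpr with a minimum count of 10, TMM scaling, robust quasi-likelihood fit of all 3 groups, no block, Benjamini-Hochberg adjustment), antisense counts with the sense scaling, after a check on simulated data. CPM are per effective library size. Alternatives included DESeq2 1.42.0. Intervals are exact or Wilson at 95%, and with floors of 3 reads cover counting error only, since the reads carry no molecular identifiers. The reference matched 45 of the 55 genes by locus tag, all with the same start and end. Replicates differed by far more than sampling noise. The numbers 1 and 2 are shared by the groups but are not stated to pair libraries. Genes named with values were the protein, rRNA, RPM1 and frame genes, tRNA genes of at least 1 CPM, the 3 highest and 3 lowest fold changes of each comparison and the genes bounding the retained stretch; in other lists, up to 2 passing genes of smallest p were eligible. The genes and lists were chosen with earlier results of these data known.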

Additional observations from a re-analysis of the deposited data

How the results depend on the processing

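The loss in ck2ts moved little. Genes called lower than in WT (30) numbered 28 with only the 2 groups compared and 29 with the replicate block. With no filter on low counts there were 36. With each library left out in turn, the log2 fold change against WT stayed at -10.06 to -9.82 for COX1 and -13.85 to -9.76 for BI4. Genes with few or no reads in ck2ts still pass the filter through the other groups, so the number called could move little. Of 478 fitted values for ck2ts against WT, 461 kept their direction and side of the threshold, 13 lost the call, 4 gained it and 0 reversed. The few upward calls moved. For ck2ts against WT (1 gene, Q0255) there were 0 with library size only, with no filter on low counts, with only the 2 groups compared, with the replicate block and with distinct exons, 2 with DESeq2 and with a non-robust dispersion, and 0 to 3 when a library was left out; the adjusted p of Q0255 was 0.057 to 0.20 where it was lost. For spt6-7SA against WT, genes called lower (1) numbered 0 with library size only and DESeq2, 2 with no filter and with the replicate block, and 0 to 3 without a library. Genes called higher (1) numbered 0 with RLE size factors, 7 with library size only, 5 with the replicate block, 2 with distinct exons and 0 to 4 without a library; DESeq2 called 1, AI1 in place of AI2. For ck2ts against spt6-7SA, genes called higher (0) numbered 1 with RLE, 2 with DESeq2 and with a non-robust dispersion, and 0 to 2 without a library. Antisense calls above WT in ck2ts (1) numbered 3 with DESeq2, 2 with the replicate block and 1 to 3 without a library; those in spt6-7SA (0) numbered 0 to 1 in each direction without a library. COB in spt6-7SA turned to -0.50 (edgeR adjusted p = 0.038) without spt6-7SA replicate 1 and stood at 0.39 without replicate 2. The cause of these changes was not tested. Where a library is left out, its group's other library is assumed to vary like the other groups. The labels do not say that the shared replicate numbers pair libraries, but the replicate differences of each pair of groups correlated at 0.36 to 0.51 over 6778 genes, a hint from the data only. Depth left 23 genes untested, the tRNA genes and small frames with few reads and ATP8.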
